A study of Saccharomyces cerevisiae with 7 samples.

Results

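Puf2 is a Pumilio (PUF) family RNA-binding protein of *Saccharomyces cerevisiae*, and the sites described here are the called Puf2 sites that the authors classed as lying in a 3' UTR (untranslated region). They were taken as all rows of the Puf2 site list with the class 3' UTR (331 sites) or predicted 3' UTR (2 sites). This gave 333 sites of 1949 in the Puf2 library and of 10580 sites in all 5 libraries of the series. The 333 sites carried the names of 262 genes. Within the called sites the class alone chose them, while the authors' caller had already selected all sites before the class was applied.

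The sites came from CLIP (crosslinking and immunoprecipitation), with 1 library per protein. Per the labels, the yeast were of mating type a, with the his3Δ1, leu2Δ0, met15Δ0 and ura3Δ0 alleles, and the PUF2 gene carried a TAP tag marked with HIS5. The other 4 libraries came from strains with the same alleles and the tag on PUF1, PUF4, PUF5 or PUF6. All CLIP cultures were grown at 30 °C in synthetic defined medium with 200 µM 4-thiouracil, a photoreactive base, and were irradiated 4 times at 365 nm with 150 mJ/cm2. Lysates were cut with RNase T1, which cleaves after G, so the ends of a site depend in part on where G lies. Levels of mRNA came from 2 polyA samples of BY4742, a strain of mating type α, labelled as deleted for PUF3 and deposited as 1 joint column. Their labels also list 30 °C, 200 µM 4-thiouracil and 4 irradiations at 365 nm, though another protocol field gives an extract made without irradiation. No untagged or uncrosslinked library was used here. Each value is from 1 library without a replicate check, and no difference between proteins was tested.

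PUF proteins fold into repeats that each read a base of RNA, and in yeast most of them lower the stability or translation of the mRNAs they hold, usually through the 3' UTR. Puf2 and its close relative Puf1 lack part of the repeats of the classical PUF proteins, and both have been linked to mRNAs of membrane and cell surface proteins. The nucleotide sequences of the sites were not analysed here, so no motif is given.

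Puf2 sites in 3' UTRs made up 17.1% of the Puf2 sites and 35.2% of the summed RPM (reads of a site scaled by the authors to the depth of the library) of the library. The strongest signal lay largely in mRNAs of plasma membrane and cell wall proteins. PMA1, the proton pump of the plasma membrane, alone held 15.9% of the 3' UTR RPM, and the 10 genes with the highest summed RPM held 37.8%. After PMA1 (46838 RPM summed over its sites) came the cell wall gene YNL190W (10713 RPM) and LSP1 (8543 RPM), a core component of eisosomes, which are furrows of the plasma membrane. They were followed by MRH1 (7973 RPM), a plasma membrane protein, and TDH3 (7626 RPM), the main glyceraldehyde-3-phosphate dehydrogenase. The next were RPI1 (7073 RPM), a regulator with effects on cell wall genes, YDR524C-B (6205 RPM), SED1 (6150 RPM), a structural protein of the cell wall, and PMP2 (5734 RPM), a small proteolipid of the proton pump. HSP150, a PIR cell wall protein, completed the 10 with 4910 RPM.

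A single site had a median of 647 RPM, with quartiles of 353 and 823 RPM and extremes of 1.97 RPM (ATO3, of a family of ammonium and acetate transporters) and 14973 RPM (PMA1). From 600 to 900 RPM lay 126 sites (37.8%). At the top, 51 sites in 39 genes reached 1000 RPM or more. At the bottom, 44 sites lay under 100 RPM, and 36 genes had no site above that level. The 3 genes with the lowest summed RPM were NIT3 (3.67 RPM), the cyclophilin gene CPR8 (2.63 RPM) and ATO3. Coding sites of the same library were weaker, with a median of 137 RPM (quartiles 72.5 and 215 RPM, n = 601 sites), and only 8 of them reached 1000 RPM. Puf2 sites in 5' UTRs had nearly the same median as those in 3' UTRs, 635 RPM (n = 94 sites). The 3' UTR sites of the other libraries had medians of 1525 RPM (Puf1), 625 RPM (Puf4), 128 RPM (Puf5) and 44.7 RPM (Puf6). An RPM value below is therefore to be read beside the median of its own library.

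**Figure D1:**
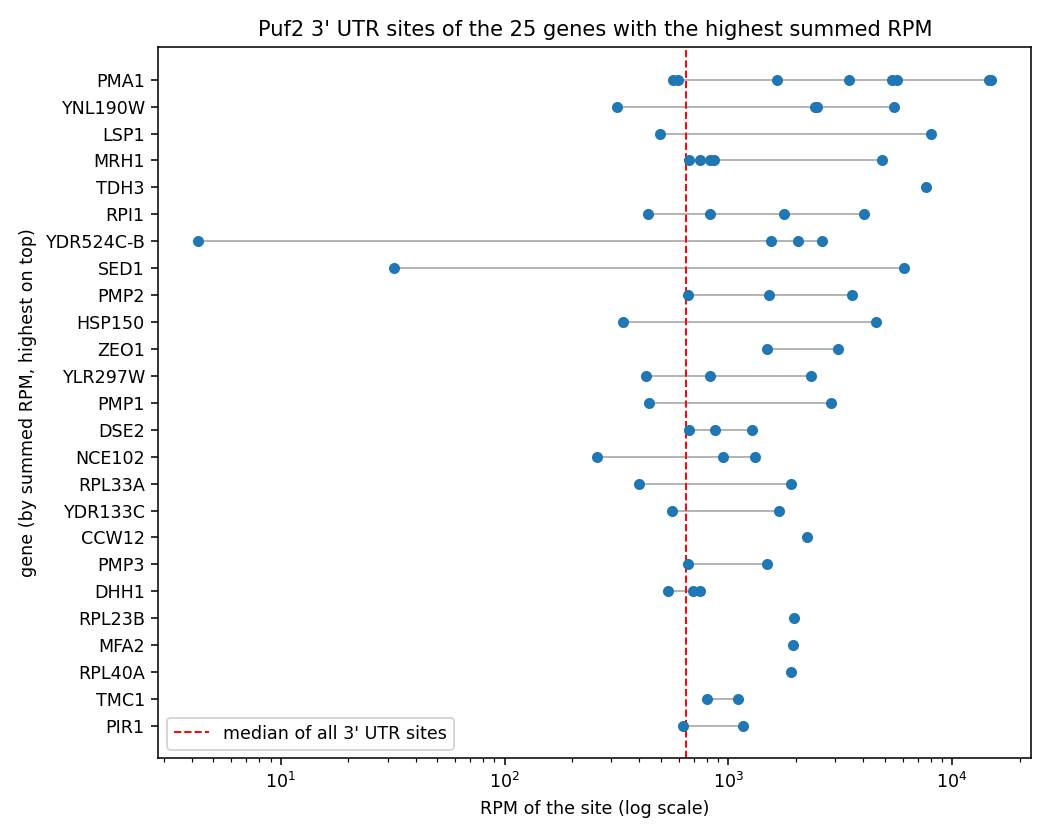
RPM of each Puf2 3' UTR site (log scale) in the 25 genes with the highest summed RPM, 1 point per site, with a line from the weakest to the strongest site of a gene. The dashed line is the median of all 333 sites, 647 RPM, and the points of PMA1 run from 565 to 14973 RPM.

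Distance from the stop codon was bounded by the choice of 3' UTR sites, and 3' UTR lengths were not used here. Among 328 sites whose gene matched the RefSeq table, the median distance from the annotated end of the coding sequence to the near edge of the site was 71.5 nt, with quartiles of 35.0 and 134 nt. Within 100 nt lay 209 sites (63.7%), and 9 sites reached back into the coding sequence by up to 12 nt. Only 18 sites in 13 genes lay more than 300 nt away, and the farthest, at 694 nt, was in DED1, an RNA helicase of translation initiation. Distances in the other libraries had medians of 49 nt (Puf6), 60.0 nt (Puf4), 66.0 nt (Puf5) and 67.0 nt (Puf1). The 34 strongest sites of Puf2 had a median of 90.0 nt and the rest one of 70.0 nt.

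Sites were short, with a median length of 24 nt (quartiles 20 and 28 nt, n = 333 sites). Just 5 sites were longer than 50 nt, and they held 9.16% of the 3' UTR RPM. All were in genes of the plasma membrane or cell surface: ZEO1 (108 nt, 3085 RPM), HSP150 (79 nt, 4572 RPM), PMA1 (71 nt, 14532 RPM), PMP2 (62 nt, 3553 RPM) and NCE102 (56 nt, 1315 RPM). In HSP150 the 1 long Puf2 site spanned 2 separate Puf1 sites (4299 and 12272 RPM) and 2 separate Puf4 sites (761 and 2773 RPM), so a site was not the same unit in each library.

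Most genes had a single site. Of the 262 genes, 213 had 1 site, 37 had 2, 7 had 3, 3 had 4, 1 (MRH1) had 5 and 1 (PMA1) had 8. The 49 genes with 2 or more sites (18.7%, exact 95% interval 14.2 to 24.0%) held 120 sites and 55.97% of the 3' UTR RPM. Of all 5521 protein-coding genes with at least 1 RPKM, 0.851% had 2 or more. Over all of these 120 sites the median was 708 RPM (quartiles 488 and 1129.7 RPM), and over the sites of the 213 genes with 1 site it was 606 RPM (quartiles 296 and 777 RPM). The mRNA of the 49 genes was more abundant as well, with a median of 668 RPKM (reads scaled by gene length and depth, in the joint puf3Δ column) against 326 RPKM, and whether level or some other property goes with site number was not tested. The share of genes with 2 or more 3' UTR sites was 17.2% in Puf1 (11.6 to 24.0%), 12.0% in Puf4 (9.24 to 15.3%), 26.6% in Puf5 (23.9 to 29.5%) and 3.61% in Puf6 (0.752 to 10.2%).

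Neighbouring sites of a gene were often close. The 71 gaps between neighbours had a median of 35 nt (quartiles 13 and 89 nt, range 1 to 492 nt), and 46 of them (64.8%, 52.5 to 75.8%) were 50 nt or less. With the same limit the share was 75.7% of 37 gaps in Puf1 (58.8 to 88.2%) and 75.8% of 66 in Puf4 (63.6 to 85.5%). In Puf5 it was 72.2% of 363 gaps (67.3 to 76.7%). The intervals treat gaps as independent, which gaps of the same gene are not, and no difference between libraries was tested. Gaps above 100 nt made up 17 of the 71 in Puf2. From the first to the last site, the span within a gene had a median of 103 nt and reached 586 nt in DED1. Within a gene the strongest site exceeded the weakest by a median factor of 2.08 (quartiles 1.44 and 7.34, n = 49 genes). In 26 of 48 genes the strongest site was the one farthest from the stop codon, and in 14 the nearest. Of the 49 genes 37 had just 2 sites, where the strongest is always 1 or the other, and a preference for either end was not tested.

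PMA1 had the most sites. Its 8 sites (sacCer3, chromosome VII, minus strand, positions as deposited) began 16 nt after the stop codon with a site of 5663 RPM at 479877 to 479894 and a site of 5391 RPM at 479811 to 479836. Weaker sites of 592 and 565 RPM followed at 193 and 314 nt. Beyond them the signal was high again, with 3472 RPM at 344 nt, 1650 RPM at 378 nt, 14973 RPM at 415 nt (479470 to 479495) and 14532 RPM at 450 nt (479390 to 479460). PMA1 signal was thus split between a group near the stop codon and a stronger group at the far end. In the other libraries, a Puf1 site overlapped 6 of the 8, a Puf5 site 5, a Puf4 site 1 and a Puf6 site none. Puf1 had 51973 RPM summed over the 3' UTR of PMA1, Puf5 1306 RPM and Puf4 759 RPM. Puf2 also had 3 sites in the 5' UTR of PMA1, up to 9943 RPM, and 10 in its coding sequence, of which the strongest had 173 RPM.

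**Figure D2:**
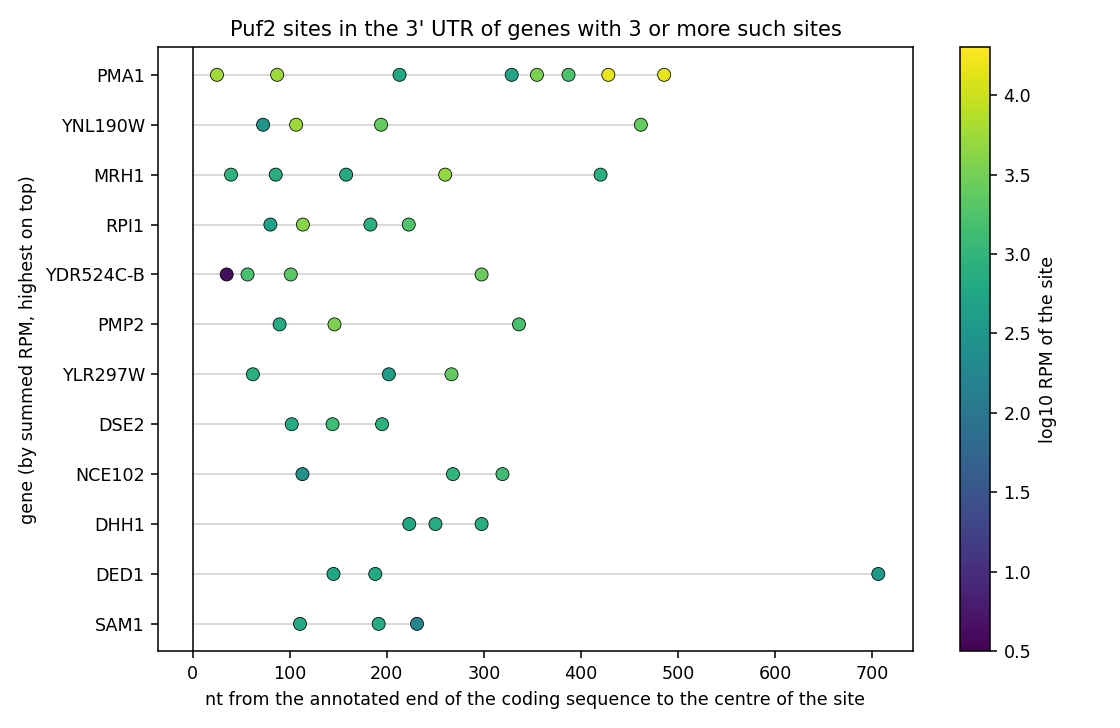
Position of each Puf2 3' UTR site in the 12 genes with 3 or more such sites, as nt from the annotated end of the coding sequence (vertical line) to the centre of the site, coloured by log10 RPM. The 8 sites of PMA1 form a near pair and a stronger far group, with weaker sites of 592 and 565 RPM between them. The 2 strongest are at the far end, and DED1 has 1 site far from its other 2.

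MRH1 had 1 dominant site among 5. This site had 4874 RPM, 250 nt after the stop codon (chromosome IV, 509359 to 509378, plus strand), while the other 4 lay at 25, 74, 146 and 406 nt with 664 to 864 RPM. A Puf1 site of 984 RPM overlapped the dominant site, and Puf5 sites overlapped the first and the last. YNL190W had 318 RPM at 58 nt, 5470 RPM at 94 nt, 2480 RPM at 185 nt and 2445 RPM at 447 nt (chromosome XIV, plus strand). All 4 of them were overlapped by Puf5 sites, of 67.8 to 288 RPM, and none by a Puf1 site.

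RPI1 stood out for signal relative to its mRNA. Its 4 sites lay within 175 nt (chromosome IX, 136416 to 136590, minus strand), with 439 RPM at 64 nt, 4031 RPM at 101 nt, 825 RPM at 169 nt and 1778 RPM at 206 nt. Its mRNA level was 43.0 RPKM, below the median of 60.4 RPKM over protein-coding genes with at least 1 RPKM. This gave 165 RPM per RPKM, the highest of the 252 genes with at least 10 RPKM, where the median was 1.42 and PMA1 had 8.90. YER053C-A (92.0), YLR297W (78.7), MTL1 (51.9), a sensor of cell wall stress, and NGL3 (38.5) followed by this ratio. YLR297W had 3 sites, of 828 RPM at 50 nt, 427 RPM at 193 nt and 2345 RPM at 252 nt, and an mRNA level of 45.7 RPKM. At the other end, the abundant mRNAs TDH3 (0.307) and ENO2 (0.0417) had low ratios. The ratio sets signal from one strain against mRNA of another, so it stands for the relative signal only where both strains have the same level.

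The a-specific genes show that limit. MFA2 and MFA1 encode the a-factor pheromone precursors and STE2 the receptor for α-factor, all made in cells of mating type a. MFA2 had 1 site of 1941 RPM, MFA1 2 sites of 484 and 579 RPM, and STE2 1 site of 778 RPM. Their mRNA levels in the strain of mating type α were 1.11, 1.35 and 5.61 RPKM. YDR524C-B, with 4 sites of 4.27, 1544, 2043 and 2613 RPM, was listed at 0 RPKM. Its site of 2043 RPM overlapped the bounds of another gene, YDR524W-C. A site of 780 RPM assigned to YDR524C-A reached into the bounds of YDR524C-B. Signal per mRNA was therefore not read for these genes.

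Across the 259 genes with at least 1 RPKM, summed 3' UTR RPM was weakly related to RPKM (Spearman's rho 0.25 across genes, a description that sets 2 strains side by side). With at least 10 RPKM, which leaves out the a-specific genes, rho was 0.26. Of the genes with 1 site, 112 of 213 (52.6%) had 500 to 1000 RPM, while their mRNA levels ran from 0.821 RPKM (YDR524C-A) to 5658 RPKM (the ribosomal protein gene RPS31). YDR524C-A, at the low end, had no match in the RefSeq table, and its site reached into YDR524C-B. The threshold of the authors' caller is not known here, and whether it shapes this band was not tested. In bins of equal gene number by RPKM, the median summed RPM of genes with a site was 499 RPM in the lowest bin, 305 to 655 RPM in the next 8 with no steady order, and 759 RPM in the highest. The lowest bin held 9 genes with a site, among them MFA1, MFA2 and STE2, whose levels come from a strain of mating type α.

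**Figure D3:**
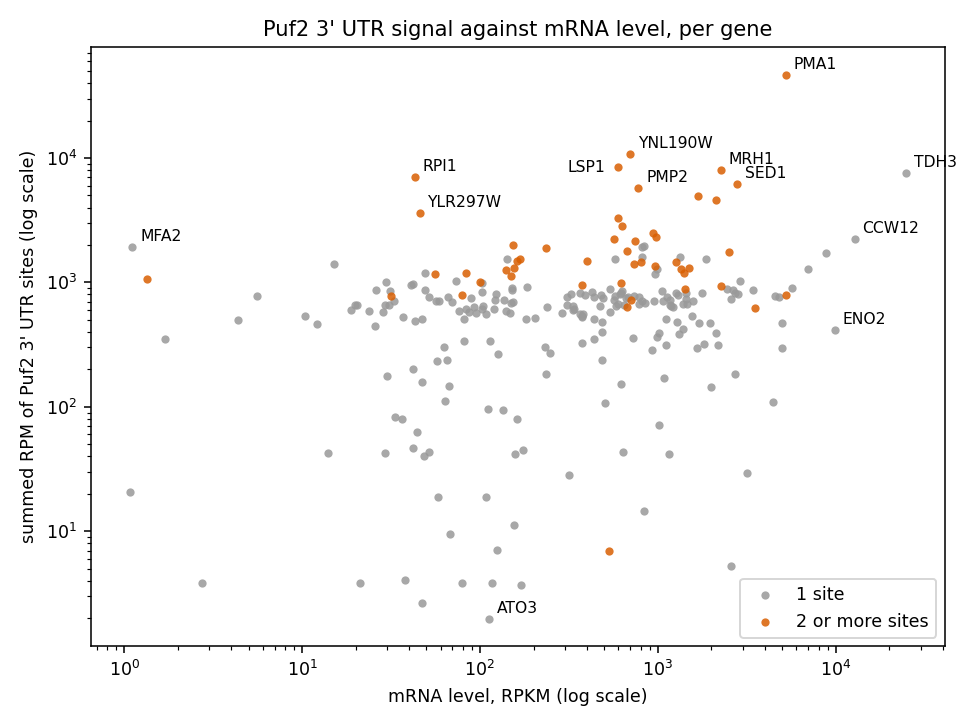
Summed RPM of the Puf2 3' UTR sites of a gene against its mRNA level in RPKM, both on log scales, 1 point per gene with at least 1 RPKM, coloured by whether the gene has 1 site or more. Many genes with 1 site lie between 500 and 1000 RPM over a wide range of RPKM, and PMA1 and RPI1 lie above it.

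Whether a gene had a site at all varied more with mRNA level. Among 5521 protein-coding genes with at least 1 RPKM, 256 (4.64%) had a Puf2 3' UTR site and 421 (7.63%) a Puf2 coding site. In the 10 RPKM bins, the share with a 3' UTR site stayed between 1.27% and 5.06% in the lower 9 bins and was 24.5% (20.9 to 28.3%, 135 of 552 genes) in the highest, from 356 RPKM upward. The share with a coding site was 0.362% in the lowest bin, 11.6% in the ninth and 34.1% in the highest. The median level of the genes with a 3' UTR site was 385 RPKM, a difference of 2.65 in median log2(RPKM + 1) from all genes tested. Even so, abundance did not guarantee a site. Of the 20 most abundant mRNAs 12 had a 3' UTR site, and of the 100 most abundant 43. The most abundant mRNAs without such a site were FBA1 (10020.5 RPKM) and CDC19 (9761 RPKM), both of glycolysis, RPS12 (6531 RPKM), the stress protein gene HSP12 (5386 RPKM) and the glycolytic gene PGK1 (5285 RPKM). FBA1, CDC19, RPS12 and PGK1 had 4, 6, 1 and 5 Puf2 sites in the coding sequence, and HSP12 had none.

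**Figure D4:**
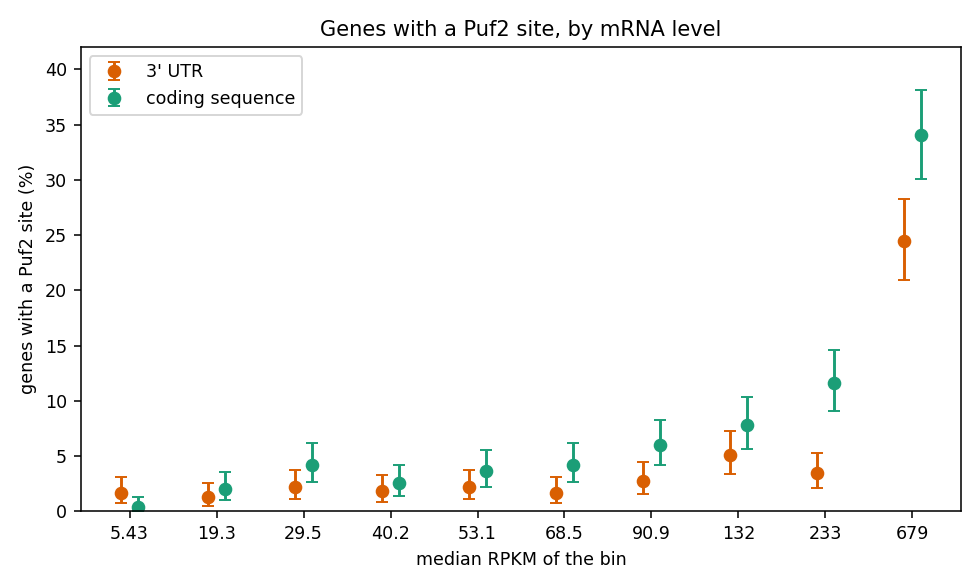
Share of protein-coding genes with a Puf2 site in the 3' UTR or in the coding sequence, in 10 bins of RPKM labelled by the median RPKM of the bin, with exact 95% intervals for counting error. The 3' UTR share is at most 5.06% in the lower 9 bins and 24.5% in the highest.

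By function, the densest group was the proton pump with its proteolipids and related factors, where 6 of 8 genes had a site (75%, 34.9 to 96.8%) against the 4.64% of all genes tested. In the highest RPKM bin, where the share over all genes was 24.5%, 4 of the 4 genes of the group had a site. The list was drawn up with earlier results of these data known. The 6 genes with a site held 17 sites and 20.1% of the 3' UTR RPM. The small proteolipids PMP1 and PMP2, which associate with the pump, resembled each other. PMP2 had 658 RPM at 80 nt, 3553 RPM at 115 nt and 1523 RPM at 322 nt (chromosome V, minus strand). PMP1 had 2862 RPM at 63 nt and 444 RPM at 308 nt (chromosome III, minus strand). Both sites overlap the bounds of another annotated gene, YCR024C-B, and whether they belong to its transcript was not tested. PMP2 sites were also overlapped in Puf1 in 2 of 3 cases, whereas PMP1 had no 3' UTR site in any of the other 4 libraries. PMP3, a small membrane protein that affects membrane potential, had 1481 and 662 RPM. EXP1 (922 RPM) and AST1 (305 RPM), which act in export of the pump to the cell surface, had 1 site each.

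Eisosome genes and the MRH1 family had sites in 6 of 19 genes (31.6%, 12.6 to 56.6%), with 7.25% of the RPM. LSP1 had nearly all of its signal in 1 site, 8048 RPM at 3 nt after the stop codon (chromosome XVI, 550607 to 550629, minus strand), and 495 RPM at 130 nt. Both were overlapped by Puf1 and Puf5 sites with nearly the same bounds, of 3181 and 512 RPM at the first. Its partner PIL1, the other core eisosome protein, had 724 and 556 RPM, and its 3' UTR held 1127 RPM in Puf1 and 1486 RPM in Puf5. NCE102, which senses sphingolipids at eisosomes, had 260, 944 and 1315 RPM, all overlapped by Puf1 and Puf5 sites. YRO2, the close relative of MRH1, had 748 RPM in the 3' UTR and 4218 RPM in its strongest 5' UTR site. SUR7 had 340 RPM. All 5 genes of the group in the highest RPKM bin had a site.

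Cell wall proteins and remodelling enzymes had sites in 19 of 67 genes (28.4%, 18.01 to 40.7%), with 12.7% of the RPM. They include 15 of the 29 genes of the group in the highest RPKM bin, where the share over all genes was 24.5%. SED1 had 6118 RPM at 298 nt and 32.2 RPM at 270 nt, and both lay within a single Puf1 site of 6518 RPM. HSP150 had 339 RPM at 72 nt beside its long site. DSE2, a wall-degrading protein of daughter cells, had 670, 1272 and 875 RPM at 91, 134 and 185 nt. CCW12, a major mannoprotein and the second most abundant mRNA, had 2244 RPM in 1 site. FKS1 (671 RPM) and GSC2 (809 RPM), the catalytic subunits of glucan synthase, each had 1 site. FKS1 had no 3' UTR site in the other 4 libraries, and GSC2 had 1 in Puf1 alone (1836 RPM). The weakest of the group was SCW4 with 14.4 RPM.

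Sensors and regulators of the cell wall pathway had sites in 5 of 17 genes (29.4%, 10.3 to 56.0%), although their median mRNA level was only 57.7 RPKM. Besides RPI1 they were ZEO1 (1486 RPM at 38 nt and 3085 RPM at 78 nt), a peripheral membrane protein that modulates the pathway, and SLT2 (831 RPM), its MAP kinase. The related sensors MTL1 (537 RPM) and MID2 (9.52 RPM) differed widely in signal.

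Cytosolic ribosomal protein genes had sites in 48 of 138 genes (34.8%, 26.9 to 43.4%), with 13.6% of the RPM. Of these genes 128 lay in the highest RPKM bin, where 46 had a site. Their median summed RPM was 777 RPM, and RPL33A (400 and 1899 RPM), RPL23B (1960.1 RPM) and RPL40A (1913 RPM) were the strongest. Many of these genes come in near-identical pairs, and whether such pairs share reads was not tested. Glycolysis and fermentation genes had sites in 9 of 25 (36.0%, 17.97 to 57.5%), all 9 among the 18 genes in the highest RPKM bin. TDH3 had 7626 RPM at 62 nt, PDC1 1733 RPM at 5 nt and TPI1 1281 RPM at 28 nt. The TDH3 site was called in Puf1 (26925 RPM), Puf4 (49293 RPM) and Puf5 (2937 RPM) with bounds that differ by 1 nt. Histone genes had sites in 4 of 10 (40%, 12.2 to 73.8%). In the highest RPKM bin it was 3 of 8, where the share over all genes was 24.5%. The strongest were HTA1 (742 RPM), HHF2 (720.1 RPM) and HTB1 (662 RPM), each below 1000 RPM. Their 3' UTR sums in Puf5 were 45420 RPM in HTA1, 9983 RPM in HHF2 and 3054 RPM in HTB1.

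In the remaining lists the share of genes with a site ran from 0% to 22.2%, on both sides of the 4.64% of all genes tested. In the highest RPKM bin the share over all genes was 24.5%. There, sites were called in 4 of 24 translation factor genes, 1 of 23 oxidative phosphorylation genes and 0 of 10 lipid genes. The counts were 0 of 6 for permeases, 0 of 6 for mitochondrial assembly, 0 of 1 for mating genes and 1 of 1 for other small membrane proteins. Translation factors had sites in 6 of 32 genes (18.8%, 7.21 to 36.4%), with DED1 (577, 623 and 343 RPM), the elongation factor gene YEF3 (872 RPM) and TIF4631 (759 RPM), an eIF4G gene, the strongest. Mating genes had sites in 3 of 14 (21.4%, 4.66 to 50.8%), the 3 a-specific genes above. Of nutrient permeases 3 of 47 had a site (6.38%, 1.34 to 17.5%), namely the hexose transporter HXT7 (519 and 737 RPM), the amino acid permease DIP5 (746 and 429 RPM) and the ammonium permease MEP3 (556 RPM). Of the polyamine transporters TPO1 alone, 1 of 5 genes (20%, 0.505 to 71.6%), had 3' UTR sites, of 470 and 714 RPM. Other small membrane proteins and ATO transporters had sites in 2 of 9 (22.2%, 2.81 to 60.01%), HOR7 (280 and 506 RPM) and ATO3. Fatty acid, sphingolipid and sterol genes had 1 of 42 (2.38%, 0.0603 to 12.6%), the HMG-CoA synthase gene ERG13 (489 and 635 RPM, with a gap of 3 nt). Nuclear genes of oxidative phosphorylation had 2 of 41 (4.88%, 0.596 to 16.5%), ATP17 (753 RPM) and INH1 (661 RPM), although 23 of the 41 lay in the highest RPKM bin. No site was called in 48 genes of mitochondrial assembly and import (0%, upper bound 7.40%). None was called in the 6 PUF family genes, PUF2 among them (upper bound 45.9%).

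**Figure D5:**
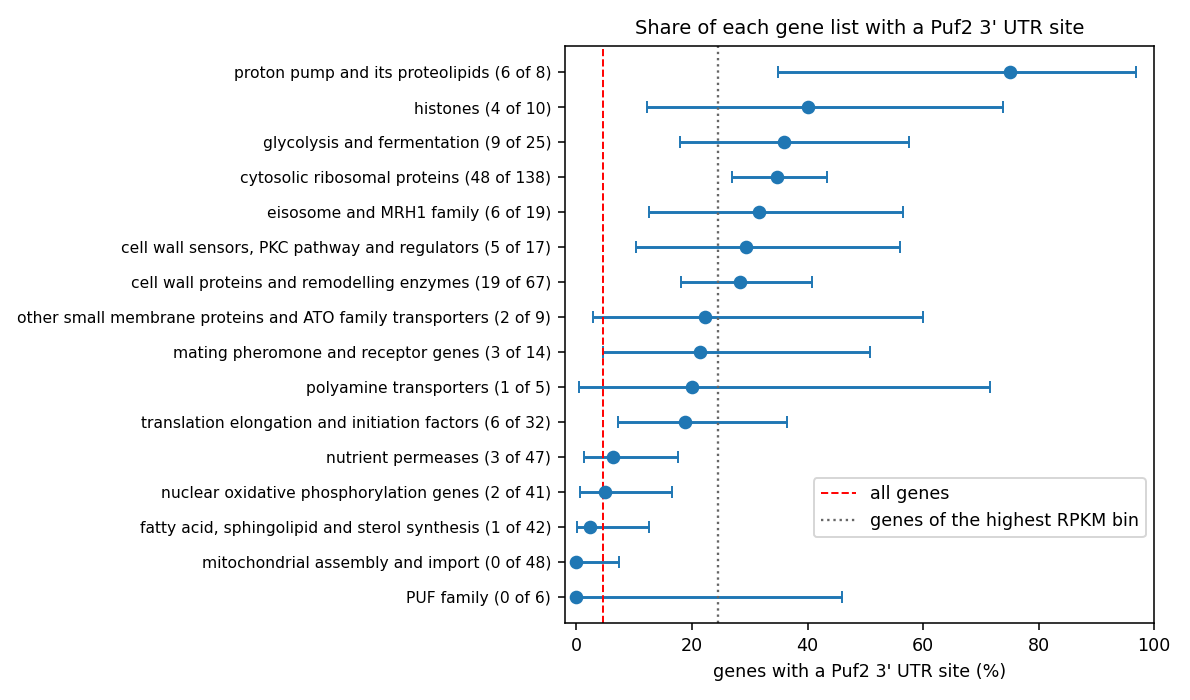
Share of the measured genes of each list with a Puf2 3' UTR site, with exact 95% intervals for counting error and the number of genes with a site beside the name. The dashed line is the 4.64% of all genes tested and the dotted line the 24.5% of the highest RPKM bin; the proton pump group is at 75% and mitochondrial assembly and import at 0%.

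In genes with both kinds, the strongest 3' UTR site usually exceeded the strongest coding site. Puf2 coding sites were present in 74 of the 262 genes, and in 60 of these the strongest 3' UTR site exceeded the strongest coding site, with a median ratio of 4.35 over the 74. Sites in the 5' UTR were present in 22 genes, and the 3' UTR site was the stronger in 12 of them. YRO2, ENO2 (413 RPM against 1410 RPM) and CCW12 (2244 RPM against 2577 RPM) had stronger 5' UTR sites. In 181 genes the 3' UTR sites were the only mRNA sites apart from introns.

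Most Puf2 3' UTR sites were also covered in another library. Of the 333 sites, 199 (59.8%, 54.3 to 65.1%) overlapped a site of at least 1 other protein by 1 nt or more on the same strand. Puf5 sites, the most numerous, overlapped 155 of them (46.5%), Puf4 sites 68 (20.4%), Puf1 sites 60 (18.02%) and Puf6 sites 16 (4.80%). Seen from the other side, Puf2 3' UTR sites overlapped 59 of 194 Puf1 3' UTR sites (30.4%), 67 of 540 in Puf4 (12.4%), 154 of 1335 in Puf5 (11.5%) and 16 of 86 in Puf6 (18.6%). Bounds were identical in 27 cases with Puf5, 13 with Puf1, 7 with Puf4 and 5 with Puf6, and the part of the RNase T1 step, common to all libraries, in shared ends was not tested. By gene, 156 of the 262 genes had a 3' UTR site in Puf5, which is 59.5% of the Puf2 genes and 16.05% of the Puf5 genes. Puf1 shared 60 genes, 22.9% of the Puf2 genes and 38.2% of the Puf1 genes. Puf4 shared 93 (35.5% and 19.6%) and Puf6 shared 28 (10.7% and 33.7%). Of all genes tested, 17.3% had a 3' UTR site in Puf5, 8.35% in Puf4, 2.7% in Puf1 and 1.49% in Puf6. Of the 15 genes with the highest summed Puf2 RPM, 14 had a 3' UTR site in Puf5, 13 in Puf1, 8 in Puf4 and 5 in Puf6.

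In 74 genes (28.2%) only Puf2 had a site in the 3' UTR. PMP1 led these, followed by CIR2 (2 sites, 1482 RPM summed), YER053C-A (1398 RPM), FMP48 (1186 RPM), USA1 (1172 RPM) and RSP5 (2 sites, 1009 RPM summed), the ubiquitin ligase that acts on plasma membrane proteins. CIR2, FMP48, USA1 and RSP5 were chosen after their values were seen. The USA1 site (chromosome XIII, plus strand, 220102 to 220124) lay 224 nt after its gene. TSA1 lies downstream on the same strand, with a 3' UTR site at 220753 to 220776. Genes were assigned by the authors, and whether the USA1 site belongs to another mRNA was not tested. In 12 genes all 5 libraries had a 3' UTR site. These were YNL190W, TDH3, YDR524C-B, HSP150, DSE2, MFA2, CWP2, HXT7 and 4 ribosomal protein genes (RPL13A, RPL28, RPL17A and RPL8B).

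Some weak sites had the same values as others. Of the 333 sites, 16 had the same RPM and length as another row of the Puf2 list, and the highest of these was 146 RPM. Among them were 6 pairs of 3' UTR sites in different genes, such as BNA4 and SML1 (43.3 RPM, 29 nt) and ADA2 and FCP1 (18.95 RPM, 28 nt). Both sites classed as predicted 3' UTR, in YDR170W-A and YLR035C-A, matched rows in Ty retrotransposons. Equal low values can also arise without shared reads, and whether these sites share reads was not tested.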

How the data were processed

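Per the labels' protocols, RNA crosslinked to TAP-tagged Puf proteins was cut with RNase T1 (1 U/µL), captured on IgG beads and sequenced, with 1 library for each of 5 proteins. The authors deposited called sites with position, strand, gene, class and RPM (reads scaled to depth). CASAVA 1.8.2, Bowtie 0.12.7 and sacCer3 were named, per the submitters' processing notes. The site caller, its threshold, the UTR annotation, the RPM divisor and whether positions count from 0 or 1 are not stated in the labels or files, so distances are good to 1 nt. Read totals were not used here, so the depth behind an RPM is unknown. For mRNA, the authors deposited 1 RPKM column for 2 samples, with no statement of how these were joined. The mRNA labels list UV irradiation in 1 protocol field and an extract made without it in another.

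Gene symbols and bounds came from a RefSeq table (assembly R64), which matched 258 of the 262 genes and gives no UTRs. Distance ran from the end of the coding sequence to the near edge of a site. Gaps ran between neighbouring sites of a gene. Overlap was at least 1 nt on the same strand. Shares have exact Clopper-Pearson 95% intervals, which cover counting error only and treat genes or sites as independent. Correlations are Spearman's. No test was made, because each protein had 1 library and sites of an mRNA are not replicates. Levels were compared as log2(RPKM + 1), pseudocount 1. Genes tested were protein-coding with at least 1 RPKM. Python 3.11.15, pandas 2.3.3, numpy 2.4.6 and scipy 1.17.1 were used, and the functions for gaps, overlaps and correlation were checked on simulated data.

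The members and the 16 gene lists were chosen with earlier results of these data known. Named are the 15 genes with the highest summed RPM, genes with 4 or more sites, the 5 with the highest RPM per RPKM (at least 10 RPKM), the 3 with the lowest RPM, the 3 strongest of each list and the 5 most abundant mRNAs without a site. Further genes named with a list or a count were chosen after their values were seen.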

Additional observations from a re-analysis of the deposited data

How the results depend on the processing

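Of 27 alternative values for the main results, 24 stayed within 1.5 times the reported count or value, or within the interval of the reported share. These covered leaving out the 2 predicted 3' UTR sites, counting identical RPM and length as 1 site (327 sites, 256 genes), the 50% of the library's sites with the highest RPM (286 sites, 223 genes, 42 genes with 2 or more sites), and other RPKM minimums and pseudocounts. The exceptions were 3. With a gap limit of 20 nt, 28 of 71 neighbouring pairs counted as close in place of 46. With the 50% of sites of highest RPM, Spearman's rho of summed RPM with RPKM was 0.16. When an overlap had to cover 50% of both sites, Puf5 overlapped 40.2% of the Puf2 3' UTR sites. The cause was not tested. Of 32 alternative shares of gene lists, 1 moved: with at least 10 RPKM no mating gene with a site remained (0%), since MFA1, MFA2 and STE2 fall under that minimum. Alternatives on UAAU elements and hydrophobic protein segments were not run, as no sequences were used here. No paired analysis was possible because each protein had 1 library and the 2 mRNA samples share 1 column, and for the same reason no replicate could be left out.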
